A study of Bos taurus with 4 samples.

Results

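The genes described here are 32 genes of glycolysis and of the response to low oxygen, chosen by name: glucose and lactate transporters, glycolytic and lactate enzymes, the regulators of phosphofructokinase, target genes of the hypoxia-inducible factors and 2 of these factors. Of the 32, 30 had a probe carrying their symbol on the cattle array, and each was read from the brightest of its probes over all 8 channels. GAPDH and PKM were not analysed here. The 30 were set beside the 12598 named genes that passed the same filter on dim probes. The study compared granulosa cells, the somatic cells that line the follicle around the oocyte, between Holstein donors rated as poor and as good sources of developmentally competent oocytes. Each of 4 arrays held 1 poor-donor pool and 1 good-donor pool, so there were 4 pools per donor group. The design text names 94 heifers and cows and sets heifers with incompetent oocytes against cows with competent ones, while the title and the array names speak of heifers, so whether the donor groups also differed in age class is not settled. Donors of both groups had been stimulated and coasted (left without hormone before collection) in an embryo production facility. RNA was taken from pools of animals whose number the labels do not give, and was amplified before labelling. No label says that the pools hold separate animals, so the p-values measure only the spread between these arrays, which may in part be technical.

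Glycolysis splits glucose into pyruvate in the cytosol and yields ATP without oxygen. Granulosa cells lie in an avascular layer of the follicle and take up glucose. Those in contact with the oocyte pass pyruvate and lactate to it, and the oocyte uses little glucose itself. The sample labels name granulosa cells only and do not say whether cells in contact with the oocyte were among them. Under low oxygen the prolyl hydroxylases encoded by the EGLN genes no longer mark HIF1A and EPAS1 for degradation. Between them, these factors then raise transcription of glucose transporters, most glycolytic enzymes and genes such as PDK1, BNIP3, CA9 and ADM. The factors themselves are controlled mainly as proteins, which an array of transcripts does not measure.

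The ratios are log2 of the poor-donor over the good-donor pool of the same array, so a value above 0 means a higher signal in the poor-donor pool, and the authors' deposited ratios run the same way. Cy5 labelled the poor-donor RNA on arrays 3 and 4 and the good-donor RNA on arrays 1 and 2, with Cy3 on the partner pool. Median spot intensity lay between 49.9 and 54.3 in Cy5 and between 90.5 and 132 in Cy3. All 10 granulosa markers passed the filter, and the 10 had mean ratios of -0.50 to -0.11, all below 0. The single arrays were less uniform: 2 of the 10 had the same sign on all 4 arrays, and 6 were above 0 on array 1. For 4 of the 10 the ratios differed by dye orientation at an unadjusted limma p under 0.05, beside 16.6% of all probes. CYP19A1, the aromatase, was at the upper end, with a normalized log2 intensity of 12.6 ± 0.52 in poor-donor and 12.7 ± 0.47 in good-donor pools (SD, n = 4). INHA, the inhibin alpha subunit, had 14.7 ± 0.81 in poor-donor and 15.2 ± 0.39 in good-donor pools (SD, n = 4), with ratios of -1.25, -1.76, 0.60 and 0.48 on arrays 1 to 4. The arrays differed among themselves. Across the 12598 genes (genes, not replicates) arrays 1 and 3 had a Pearson's r of -0.40, and array 4 had the widest ratios (SD 0.419 over tested probes, against 0.274 to 0.317 on the others). Array 4 also stood apart in other cell types: the median ratio of 10 epithelium markers was 2.71 there, against -0.41 to 0.96 on arrays 1 to 3, and that of 10 leukocyte markers was 1.29, against -0.097 to 0.21. In such bulk samples, fewer cells of a type and less RNA per cell cannot be told apart.

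No gene of the 30 passed the threshold between poor-donor and good-donor pools after adjustment, and no other probe did. limma gave 0 of 31917 probes (0%) an adjusted p under 0.05, and the adjusted p was 1 for each of the 30. At an unadjusted limma p under 0.05 there were 4 of the 30, all with higher signals in poor-donor pools: ALDOA, TPI1, PFKFB3 and SLC16A1. Over all tested probes, 3.55% met this (1133 probes), 1.37% in that direction and 2.18% in the other, where the 30 had 0. Of the 12598 genes, each read from its brightest tested probe, 242 met it in that direction and 342 in the other. A ratio of 1 sign on all 4 arrays was found for 6 of the 30, beside 9.27% of all probes and 10.1% of the 12598 genes. These were 4 with higher signals in poor-donor pools (ALDOA, TPI1, GPI and SLC16A1; 4.17% of all probes) and 2 with lower ones (ALDOC and SLC16A3; 5.1% of all probes). A mean ratio of at least 0.32 in size was reached by 5 of the 30 (ALDOA, ENO1, PFKFB3, SLC16A1 and EGLN3), all 5 higher in poor-donor pools. It was reached by 3.99% of all probes and by 716 of the 12598 genes. The ratios of the 30 also spread more widely, with a median SD over arrays of 0.33, against 0.20 for the 12598 genes. The 12598 genes were not matched to the 30 in signal intensity, so this comparison, like the counts above, does not allow for brightness. The count at an unadjusted p under 0.05 was 1 without array 2, 1 with ratios centred on the array median in place of loess, 1 with an intensity trend, and 2 with all probes of a gene averaged.

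**Figure D1:**
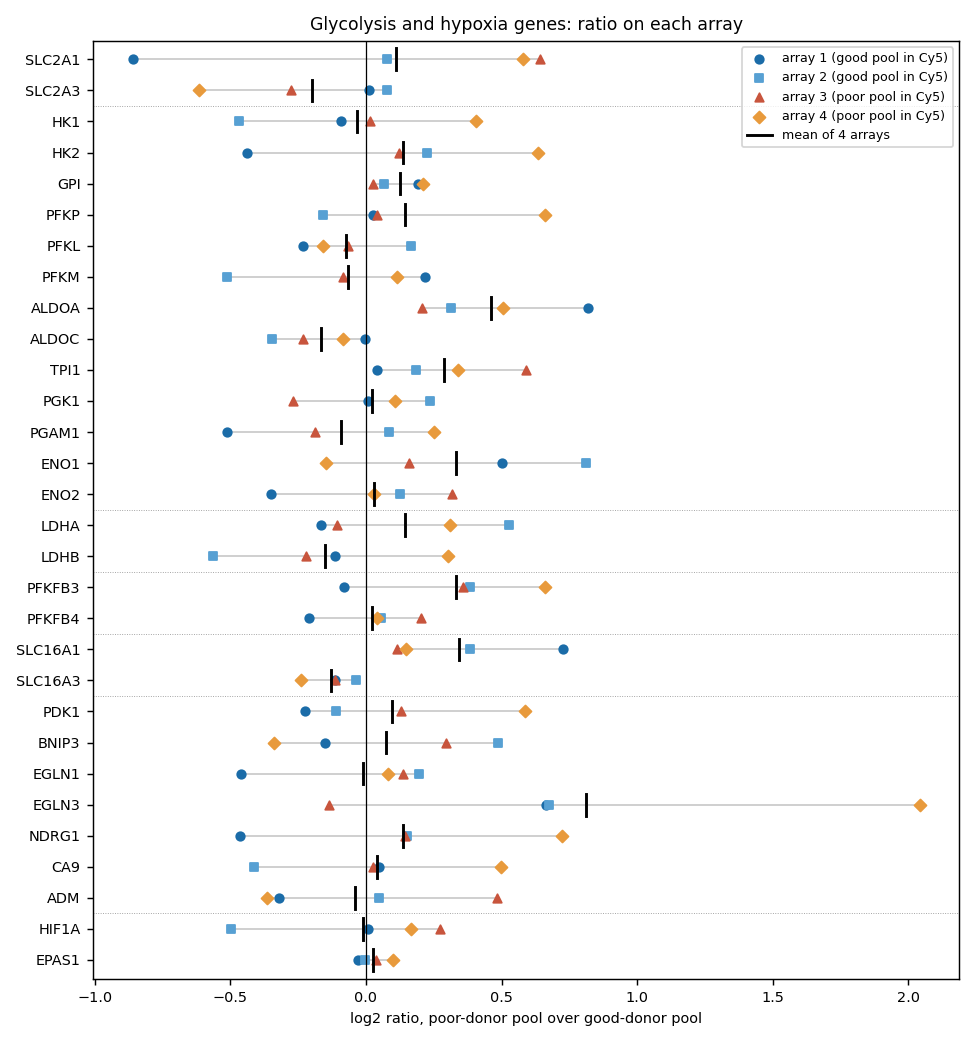
Log2 ratio of the poor-donor over the good-donor pool (x axis) for each of the 30 genes (rows, grouped by role), with 1 symbol per array and a black bar at the mean of the 4 arrays. Most genes have arrays on both sides of 0, and the ALDOA, TPI1, GPI and SLC16A1 points all lie above it. The EGLN3 value of 2.04 on array 4 is the farthest from 0 in the plot.

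Glucose entry and its first phosphorylation showed no common direction. SLC2A1, the transporter GLUT1, had normalized log2 intensities of 9.11, 9.62, 9.44 and 10.12 in the poor-donor pools of arrays 1 to 4, against 9.97, 9.55, 8.80 and 9.54 in the good-donor pools. Its ratios were therefore -0.86, 0.077, 0.64 and 0.58, with the poor-donor pool dimmer on array 1, level on array 2 and brighter on arrays 3 and 4. The mean of 0.11 ± 0.69 (SD, n = 4) was smaller than the spread. SLC2A3, the high-affinity transporter GLUT3, went the other way on arrays 3 and 4, with ratios of 0.013, 0.076, -0.27 and -0.61. Its mean of -0.20 ± 0.32 (SD, n = 4) was the lowest of the 30 genes. The hexokinases, which trap glucose as glucose 6-phosphate, had ratios of -0.09, -0.47, 0.016 and 0.41 for HK1 and -0.44, 0.22, 0.12 and 0.64 for HK2. Both had arrays on either side of 0, with means of -0.034 ± 0.36 and 0.14 ± 0.44 (SD, n = 4).

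Among the enzymes that carry hexose phosphates to triose phosphates, ALDOA stood out. ALDOA, the aldolase that cleaves fructose 1,6-bisphosphate in most tissues, had normalized log2 intensities of 12.76, 12.60, 12.15 and 12.46 in the poor-donor pools of arrays 1 to 4, against 11.94, 12.29, 11.95 and 11.96 in the good-donor pools. The poor-donor pool was brighter on each array, although the lowest poor-donor pool (array 3) lay below the highest good-donor pool (array 2), so the groups overlapped. The ratios were 0.82, 0.31, 0.21 and 0.50, a mean of 0.46 ± 0.27 (SD, n = 4) or 1.38-fold, with a limma 95% interval of 0.17 to 0.76 (unadjusted p = 0.0102, adjusted p = 1). This was the smallest p of the 30. The brain-type aldolase ALDOC lay on the other side, with 7.15, 7.20, 7.15 and 7.18 in the poor-donor pools of arrays 1 to 4, against 7.16, 7.55, 7.38 and 7.26 in the good-donor pools. Its 4 poor-donor pools were all between 7.15 and 7.20, and the ratios of -0.0025, -0.35, -0.23 and -0.083 gave a mean of -0.17 ± 0.15 (SD, n = 4), which was -0.11 without array 2.

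GPI, which isomerises glucose 6-phosphate to fructose 6-phosphate, had a small ratio of steady sign. Its normalized log2 intensity was 11.01, 11.04, 11.01 and 11.23 in the poor-donor pools of arrays 1 to 4, against 10.82, 10.97, 10.98 and 11.02 in the good-donor pools, and the groups overlapped. The ratios of 0.19, 0.067, 0.027 and 0.21 averaged 0.12 ± 0.091 (SD, n = 4), or 1.09-fold. The phosphofructokinases catalyse the committed step of the pathway. The platelet-type PFKP had ratios of 0.028, -0.16, 0.04 and 0.66, the liver-type PFKL -0.23, 0.17, -0.066 and -0.16 and the muscle-type PFKM 0.22, -0.51, -0.086 and 0.11. Only array 4 held a sizeable PFKP ratio, and the means of 0.14, -0.072 and -0.067 were each smaller than the SD over arrays.

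PFKFB3 was the more marked of the 2 regulators that make fructose 2,6-bisphosphate, the activator of phosphofructokinase. Its normalized log2 intensity was 7.61, 7.94, 7.77 and 8.14 in the poor-donor pools of arrays 1 to 4, against 7.69, 7.56, 7.41 and 7.48 in the good-donor pools. The poor-donor pool was brighter on arrays 2, 3 and 4 and slightly dimmer on array 1, and the lowest poor-donor pool lay below the highest good-donor pool, both of array 1. The ratios of -0.081, 0.38, 0.36 and 0.66 averaged 0.33 ± 0.31 (SD, n = 4), or 1.26-fold, with a limma 95% interval of 0.00099 to 0.66 (unadjusted p = 0.0495, adjusted p = 1). Without array 4 the mean was 0.22. PFKFB4 had ratios of -0.21, 0.054, 0.20 and 0.041 and was above background in 3 of 4 pools of each group, so its ratios rest on signals near background.

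In the triose part of the pathway, TPI1 had the same sign on all arrays. TPI1, which interconverts the 2 triose phosphates, had normalized log2 intensities of 13.93, 13.88, 13.92 and 13.91 in the poor-donor pools of arrays 1 to 4, against 13.89, 13.70, 13.33 and 13.58 in the good-donor pools. The poor-donor pools were almost alike (SD 0.02), and the good-donor pools spread more widely (SD 0.23), with the pool of array 1 level with the poor-donor pools. The ratios were 0.04, 0.19, 0.59 and 0.34, a mean of 0.29 ± 0.24 (SD, n = 4) or 1.22-fold, with a limma 95% interval of 0.024 to 0.55 (unadjusted p = 0.038, adjusted p = 1). Without array 3 the TPI1 mean was 0.19. Its ratios were smaller on arrays 1 and 2 (mean 0.11) than on arrays 3 and 4 (0.46; limma dye term, unadjusted p = 0.061). The TPI1 spot was at 28.3% to 54.5% of the brightest probe of each channel. ENO1, the main enolase, had 12.00, 12.25, 11.80 and 11.61 in the poor-donor pools of arrays 1 to 4, against 11.50, 11.44, 11.64 and 11.76 in the good-donor pools. Its ratios of 0.50, 0.81, 0.16 and -0.15 were high on arrays 1 and 2 and near 0 or below it on arrays 3 and 4, with a mean of 0.33 ± 0.42 (SD, n = 4), which was 0.17 without array 2. The ENO1 ratios thus differed by dye orientation, and the dye term of the fit had an unadjusted p of 0.025 (adjusted p = 0.257). PGK1 and PGAM1, the kinase and the mutase of the 3-phosphoglycerate steps, had ratios of 0.0092, 0.24, -0.27 and 0.11 and -0.51, 0.084, -0.19 and 0.25. ENO2, the neuronal enolase, had -0.35, 0.13, 0.32 and 0.03. All 3 had arrays on both sides of 0 and means between -0.091 and 0.031.

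The lactate enzymes did not separate the groups. LDHA, the subunit that favours conversion of pyruvate to lactate, had 13.74, 14.24, 13.63 and 14.02 in the poor-donor pools of arrays 1 to 4, against 13.91, 13.71, 13.74 and 13.71 in the good-donor pools, with the highest values in the poor-donor pools of arrays 2 and 4. The ratios of -0.17, 0.53, -0.10 and 0.31 averaged 0.14 ± 0.33 (SD, n = 4). LDHB, the subunit that favours the reverse reaction, had -0.11, -0.57, -0.22 and 0.30 and a mean of -0.15 ± 0.36 (SD, n = 4). LDHA and LDHB ratios had opposite signs on array 2 only, and the same sign on arrays 1, 3 and 4.

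The lactate transporters lay on opposite sides. SLC16A1, the monocarboxylate transporter MCT1, had normalized log2 intensities of 10.28, 10.19, 9.93 and 10.04 in the poor-donor pools of arrays 1 to 4, against 9.55, 9.80, 9.82 and 9.89 in the good-donor pools. Every poor-donor pool was above every good-donor pool, which held for this 1 gene of the 30 and for 1.89% of all tested probes. The ratios were 0.73, 0.39, 0.12 and 0.15, a mean of 0.34 ± 0.28 (SD, n = 4) or 1.27-fold, with a limma 95% interval of 0.037 to 0.65 (unadjusted p = 0.035, adjusted p = 1). Without array 1 the SLC16A1 mean was 0.22. The ratios were larger on arrays 1 and 2 (mean 0.56) than on arrays 3 and 4 (0.13; dye term, unadjusted p = 0.051). SLC16A3, the lactate exporter MCT4 of glycolytic cells, had 10.78, 10.78, 10.40 and 10.55 in the poor-donor pools of arrays 1 to 4, against 10.90, 10.81, 10.52 and 10.79 in the good-donor pools. The poor-donor pool was the dimmer one on each array, and the groups overlapped. Its ratios of -0.12, -0.037, -0.11 and -0.24 averaged -0.13 ± 0.084 (SD, n = 4).

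**Figure D2:**
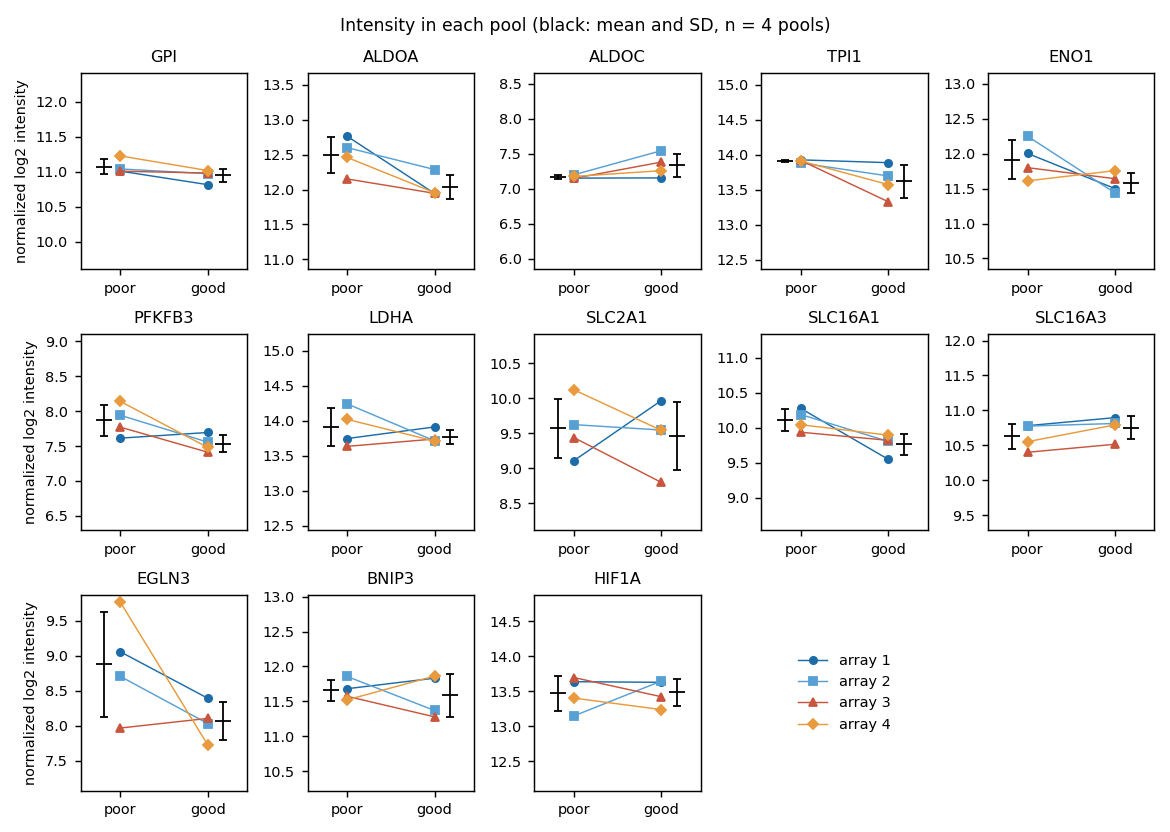
Normalized log2 intensity (y axis, 2.8 log2 units in every panel) of 13 genes in the poor-donor and good-donor pools, with lines joining the pools of 1 array and black bars at the mean ± SD of 4 pools. The pools of the groups overlap in 12 of the 13 panels, and SLC16A1 is the exception. The EGLN3 pools of array 4 lie farthest apart.

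Of the 7 hypoxia targets, EGLN3 had the largest ratio and the largest spread. EGLN3, a prolyl hydroxylase that the hypoxia-inducible factors induce and that acts back on them, had normalized log2 intensities of 9.06, 8.71, 7.97 and 9.77 in the poor-donor pools of arrays 1 to 4, against 8.39, 8.03, 8.10 and 7.73 in the good-donor pools. The poor-donor pool was brighter on arrays 1, 2 and 4, and the poor-donor pool of array 3 was as dim as the good-donor pools. The ratios were 0.67, 0.67, -0.14 and 2.04, a mean of 0.81 ± 0.91 (SD, n = 4) or 1.75-fold, with a limma 95% interval of -0.10 to 1.73 (unadjusted p = 0.071, adjusted p = 1). Without array 4 the mean was 0.40. The leukocyte marker medians were -0.097, 0.21, 0.0048 and 1.29 and the epithelium marker medians -0.41, 0.96, 0.95 and 2.71 on arrays 1 to 4. EGLN3 was thus 0.67 on array 1, where both marker medians were below 0, and highest on array 4, where both were highest. In each list, 3 of the 10 markers were nevertheless above 0 on array 1. The summed leukocyte marker intensity there was 1588 in the poor-donor and 1544 in the good-donor pool, and that of epithelium markers 17621 and 28056. The part of other cell types in the EGLN3 result was not tested.

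The other 6 targets had means between -0.039 and 0.14. BNIP3, a mitochondrial protein that promotes mitophagy, had 11.68, 11.86, 11.57 and 11.52 in the poor-donor pools of arrays 1 to 4, against 11.83, 11.37, 11.28 and 11.86 in the good-donor pools. Its ratios of -0.15, 0.49, 0.29 and -0.34 were above 0 on arrays 2 and 3 and below 0 on arrays 1 and 4, with a mean of 0.073 ± 0.38 (SD, n = 4). PDK1, the kinase that inhibits pyruvate dehydrogenase, had -0.22, -0.11, 0.13 and 0.59, and NDRG1, a stress-induced protein, -0.47, 0.15, 0.14 and 0.72. Both were highest on array 4, and without that array their means were -0.068 and -0.057, against 0.096 and 0.14 with it. EGLN1, the main oxygen sensor of the pathway, had -0.46, 0.19, 0.14 and 0.081, and the carbonic anhydrase CA9, which helps to export acid, 0.047, -0.41, 0.024 and 0.50. ADM, the vasodilator peptide adrenomedullin, had -0.32, 0.047, 0.48 and -0.37. These 3 genes had means of -0.012, 0.039 and -0.039, each smaller than the SD over arrays.

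The factors themselves showed no difference beyond their spread. HIF1A, the oxygen-regulated subunit of the main factor, had 13.64, 13.15, 13.70 and 13.40 in the poor-donor pools of arrays 1 to 4, against 13.63, 13.65, 13.42 and 13.24 in the good-donor pools, and the pools of the groups were intermingled. The ratios of 0.009, -0.50, 0.27 and 0.17 averaged -0.012 ± 0.34 (SD, n = 4), with a limma 95% interval of -0.38 to 0.35. EPAS1, the related factor HIF-2 alpha, was above background in 2 of 4 pools of each group, and its ratios of -0.027, -0.0045, 0.036 and 0.10 rest on signals near background.

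Glycolytic enzymes and hypoxia targets both had medians just above 0. Of 15 glycolytic and lactate enzymes, 9 had a mean ratio above 0, with a group median of 0.031. Of 7 hypoxia targets, 5 were above 0, with a median of 0.073. All 30 genes together had 19 above 0 and a median of 0.035, beside 50.8% of all tested probes, 51.6% of all 12598 genes and a median of 0.003. The enzymes' median was -0.0025, 0.13, 0.016 and 0.25 on arrays 1 to 4, and the targets' median -0.22, 0.15, 0.14 and 0.50. The targets were thus the lower group on array 1 and the higher on arrays 2, 3 and 4, with enzyme minus target differences of 0.22, -0.024, -0.12 and -0.25. On array 4, 23 of the 30 genes were above 0, and without it 13 of the 30 had a mean above 0, with medians of -0.03 for the enzymes and -0.043 for the targets. Without array 3 there were 15 of the 30, and the enzymes' median of 0.12 lay above the targets' of 0.044. All 4 arrays had 1 sign for 4 of the 15 enzymes (ALDOA, TPI1 and GPI above 0, ALDOC below it) and for 0 of the 7 targets. This held for 10.1% of all 12598 genes, so 0 of so few targets does not set them apart. No test was run on these group values, and no p is given.

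**Figure D3:**
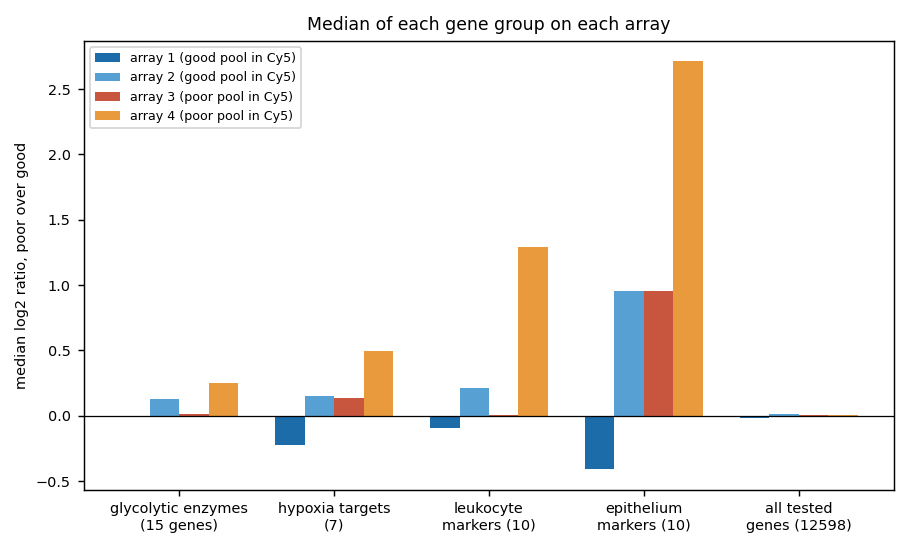
Median log2 ratio of the poor-donor over the good-donor pool (y axis) of each gene group on each of the 4 arrays, with all tested genes at the right. Both groups of the 30 genes are highest on array 4 (0.25 and 0.50), as are the leukocyte and epithelium markers, while all tested genes stay within -0.016 and 0.012.

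The marker lists were measured over the same pools. Of 10 granulosa markers, 10 had a mean ratio below 0 (median -0.17), with list medians of 0.067, -0.51, -0.24 and -0.14 on arrays 1 to 4. Their summed normalized intensity was 53375 to 118154 in poor-donor and 80399 to 126224 in good-donor pools, so the groups overlapped. Of 10 tested leukocyte markers (of 16 listed), 9 had a mean ratio above 0, and their summed normalized intensity ranged from 1512 to 6054 in poor-donor and from 1088 to 1544 in good-donor pools, and ITGAM and NKG7 were at background in all 8 channels. Of 10 tested epithelium markers (of 12 listed), 10 were above 0, with sums of 17621 to 78760 in poor-donor and 8198 to 28056 in good-donor pools. For both lists the highest sum was that of the poor-donor pool of array 4, where the epithelium sum of 78760 stood beside a granulosa sum of 107583. For endothelium, theca with smooth muscle, and erythrocyte markers, the list medians on array 4 were 0.026, -0.02 and 0.40, and PECAM1 was at background in all 8 channels. The sums of these 3 lists lay between 481 and 581, 4333 and 5840, and 387 and 679 in poor-donor pools, against 481 and 633, 4253 and 6357, and 412 and 843 in good-donor pools. Without array 4 the mean ratio was 0.45 for ALDOA, 0.27 for TPI1, 0.41 for SLC16A1, 0.22 for PFKFB3 and 0.40 for EGLN3. With all arrays these were 0.46, 0.29, 0.34, 0.33 and 0.81, so among these 5 genes PFKFB3 and EGLN3 moved most.

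The arrays of the dye orientations were also set against each other. In 16 of the 30 the mean ratio was above 0 on arrays 3 and 4 and below 0 on arrays 1 and 2, beside 32.9% of all genes. This held for 7 of the 15 enzymes and 5 of the 7 targets. In 3 of these 16 (HK1, PDK1 and EPAS1) each of the 4 arrays followed this pattern, and in the others at least 1 array did not. The orientation means hold array 1, where 12 of the 30 genes were above 0, and array 4, where 23 were, so single arrays and dye cannot be told apart here. In 8 of the 30 both orientations were above 0, beside 19.8% of all genes, and these were ALDOA, TPI1, GPI, ENO1, LDHA, PFKFB3, SLC16A1 and EGLN3. Both arrays of 1 orientation lay opposite to both of the other for 4 of the 30 (SLC2A3, HK1, PDK1 and EPAS1), which is below the 29.4% of all probes. SLC2A1 had the widest gap between the orientations, with means of -0.39 on arrays 1 and 2 and 0.61 on arrays 3 and 4. The dye term passed the adjusted threshold for 0 of the 30, and for 0 of all probes (0%). At an unadjusted p under 0.05 it was found for 2 of the 30, SLC2A3 (0.034) and ENO1 (0.025), below the 16.6% of all probes, and neither gene is among the 16. An equal dye effect on all arrays cancels in the mean over both orientations.

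**Figure D4:**
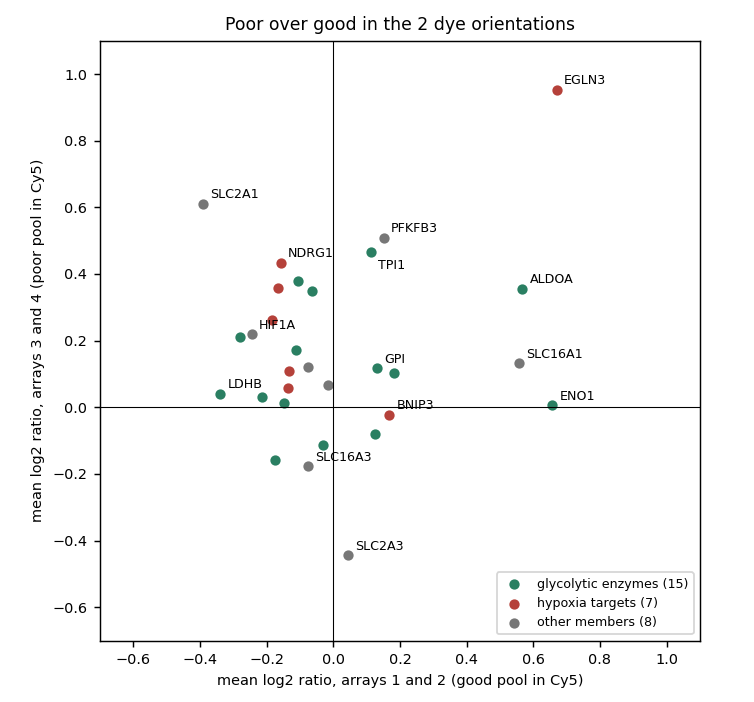
Mean log2 ratio of the poor-donor over the good-donor pool on arrays 1 and 2 (x axis) and on arrays 3 and 4 (y axis), with 1 point per gene. The upper left field, with means below 0 on arrays 1 and 2 and above 0 on arrays 3 and 4, holds 16 of the 30 genes, and the upper right field holds 8, among them ALDOA, TPI1, SLC16A1 and EGLN3.

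Other probes of the same genes gave a mixed picture. Of 48 probes with one of the 30 symbols, 45 passed the filter, and 11 genes had more than 1 tested probe. All tested probes of a gene had a mean ratio on the same side of 0 for 4 of the 11: EGLN1, LDHA, PDK1 and SLC16A1. The second LDHA probe repeated the first closely, with ratios of -0.18, 0.43, 0.00053 and 0.33 on arrays 1 to 4. The other 2 SLC16A1 probes gave smaller means of 0.087 ± 0.26 and 0.13 ± 0.22 (SD, n = 4), against 0.34 ± 0.28 for the brightest. The second probe had ratios of 0.40, 0.16, -0.21 and -0.0062 on arrays 1 to 4, and the third 0.21, 0.39, 0.095 and -0.15. Neither thus had 1 sign on all 4 arrays, which held for the brightest. Both had higher means on arrays 1 and 2 (0.28 and 0.30) than on arrays 3 and 4 (-0.11 and -0.028), as the brightest did. For GPI and ENO1 the second probe had a mean of -0.067 ± 0.23 and -0.10 ± 0.58, on the other side of 0 from the brightest. The second ENO1 probe was above 0 on arrays 1 and 2 and below 0 on arrays 3 and 4, with ratios of 0.30, 0.46, -0.74 and -0.44. HIF1A had means of -0.012, -0.087 and 0.21 over its 3 probes. ALDOA, TPI1, PFKFB3 and EGLN3 had 1 probe each, so their ratios have no second probe beside them.

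**Figure D5:**
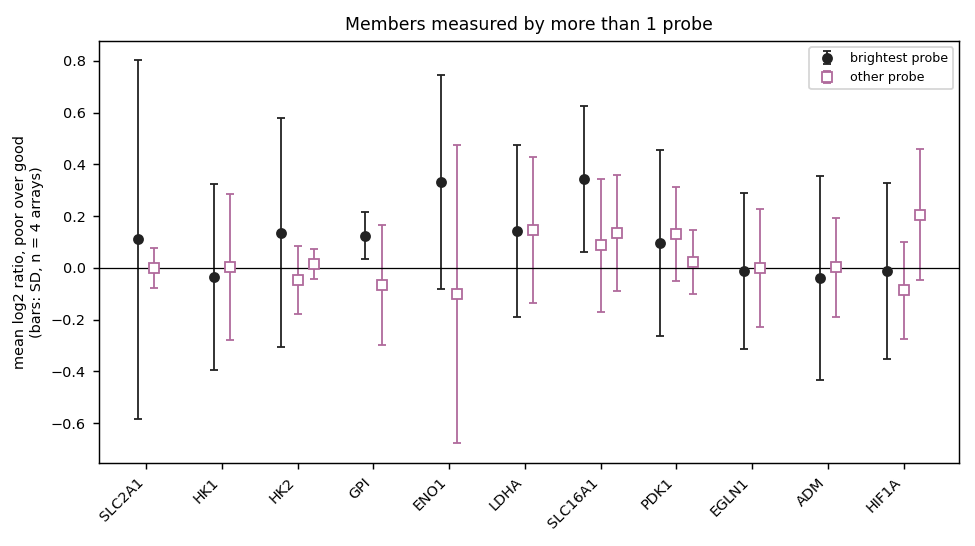
Mean log2 ratio of the poor-donor over the good-donor pool (y axis, bars SD of 4 arrays) of every tested probe of the 11 genes with more than 1 (x axis). The brightest probe is black and the others are open. The 2 LDHA probes coincide, and the GPI and ENO1 probes lie on opposite sides of 0.

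The neighbouring branches of glucose metabolism had no gene past the adjusted threshold either. Gluconeogenesis and glycogen genes had 7 of 13 tested members above 0 (median 0.032) and 1 with an unadjusted p under 0.05. That gene was PCK2, the mitochondrial enzyme that turns oxaloacetate into phosphoenolpyruvate, with ratios of 0.19, 0.52, 0.43 and 0.89 and a mean of 0.51 ± 0.29 (SD, n = 4), or 1.42-fold (limma, unadjusted p = 0.0088, adjusted p = 1). The poor-donor pool was brighter on each array. PYGB, a glycogen phosphorylase, had 0.11 ± 0.034 and FBP2, a fructose bisphosphatase, 0.61 ± 0.84 (SD, n = 4), with FBP2 above background in 3 of 4 pools of each group. Pyruvate entry into mitochondria had 5 of 13 above 0 (median -0.022), with PC, the pyruvate carboxylase, at 0.048 ± 0.037 (SD, n = 4). The pentose phosphate pathway had 5 of 7 above 0 (median 0.057), with PGD, its second dehydrogenase, at 0.19 ± 0.19 (SD, n = 4). Further glycolytic isozymes and transporters had 7 of 16 above 0 (median -0.0023). GPD1, which makes glycerol 3-phosphate, had ratios of 0.10, 0.18, 0.25 and 0.19 and a mean of 0.18 ± 0.063 (SD, n = 4; limma, unadjusted p = 0.019, adjusted p = 1), while its other probe gave 0.017. SLC2A8, a glucose transporter of intracellular membranes, had -0.17 ± 0.13, and PGAM2, the muscle mutase, -0.098 ± 0.10 (SD, n = 4).

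A wider set of hypoxia targets was centred closer to 0 than the 7 described above. Of 25 tested genes (of 30 listed), 15 had a mean ratio above 0, with a median of 0.013. The medians on arrays 1 to 4 were -0.022, 0.012, 0.049 and 0.031, without the high value that the 7 targets had on array 4. An unadjusted limma p under 0.05 was found for 0 in the higher and 1 in the lower direction. That gene, named after its values were seen, was BHLHE41, a repressor of transcription, with ratios of -0.41, -0.40, 0.055 and -0.25 and a mean of -0.25 ± 0.22 (SD, n = 4; limma, unadjusted p = 0.049, adjusted p = 1). In this set 1 gene had 1 sign on all arrays, the histone demethylase KDM3A, at 0.13 ± 0.12 (SD, n = 4). Of 10 tested regulators of the factors, 6 were above 0 (median 0.02). HIF1AN, the asparaginyl hydroxylase that blocks coactivator binding, had 0.11 ± 0.081 (SD, n = 4).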

How the data were processed

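Granulosa RNA of 4 poor-donor and 4 good-donor pools was read on 4 two-colour arrays. The authors deposited scanner output with linear spot intensity, as mean and median, and local background for Cy5 (635 nm) and Cy3 (532 nm), per the file headers. The normalized log2 ratios that they deposited beside it were made by a method not given in the sources used here. Set against the scanner ratios they had r of 0.98, 0.97, 0.96 and 0.98 with poor over good on arrays 1 to 4 and medians of 0.023, 0.0039, -0.015 and -0.029, and they served as an alternative.

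Mean intensity was corrected with median local background (normexp, offset 50) and normalized by loess within arrays, with control spots at weight 0, and by Aquantile between arrays (limma 3.58.1, R 4.3.3). Probes above the 95th percentile of 757 dark and negative control spots in at least 4 of 8 channels were tested (31917 of 43794). A moderated two-sided test of the mean ratio (lmFit, eBayes in limma) was run per probe, with p-values adjusted by Benjamini-Hochberg over all tested probes and a threshold of 0.05 (3 residual and 1.97 prior degrees of freedom). The platform annotation, which is old, gave 1 symbol to 21790 probes and none to 22004, and older symbols were updated through RefSeq (assembly ARS-UCD2.0). A probe not matched to a symbol is unnamed here. The number of arrays limits the precision. The method was tested on simulated data with changes larger than any mean ratio of the glycolysis and hypoxia genes. That test thus does not cover changes of their size.

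The genes and lists were chosen with earlier results of these data known. All 30 genes with a probe are named. Pool values are printed for those with the same sign on 4 arrays or a mean ratio of at least 0.32 in size, and for LDHA, SLC2A1, BNIP3 and HIF1A. Other lists give at most 3 genes each, those with the smallest p among genes of the same sign on 4 arrays, or the 1 with the smallest p where there is none. Alternatives changed the background correction, foreground measure, normalization, filter, probe rule, dye term, model (separate channels, statmod 1.5.0), spread, array weights, source of values, threshold and arrays.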

Additional observations from a re-analysis of the deposited data

Results flagged for a closer look

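Of 61 sets of 4 ratios examined for an array far from the other 3, 2 stood out, beside 3.05 expected by chance at 1 in 20. ARNT, the partner subunit of the hypoxia-inducible factors, was named after its values were seen. It had a ratio of -2.14 on array 4, against -0.098 to 0.067 on the other arrays. The pentose phosphate pathway had a median ratio of 0.297 on array 4, against 0.02 to 0.042 on the other arrays. None of the 30 glycolysis and hypoxia genes stood out in this way.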

How the results depend on the processing

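No probe and none of the 30 genes passed the adjusted threshold under any alternative that kept it. The smallest adjusted p over all probes was 0.614 as reported and 0.064 with separate channels. At an unadjusted p under 0.05 in place of the adjusted one, 1133 probes and 4 of the 30 genes were counted, and the dye term was counted for 2 of the 30. The 4 genes at an unadjusted p under 0.05 were 1 with median centring, 1 with an intensity trend, 2 with the mean of all tested probes of a gene, 5 with a dye term and 6 with separate channels, and from 1 to 4 when 1 array was left out. The 6 genes with the same sign on 4 arrays were 2 with median centring and 4 both with the deposited ratios and with averaged probes. Genes with a mean ratio above 0 numbered 13 to 22 of 30 when 1 array was left out, and 18 to 21 under the other alternatives. The median of the glycolytic enzymes lay between -0.030 and 0.12, and that of the hypoxia targets between -0.043 and 0.15, with both lowest without array 4. Of 510 values of single genes under 17 alternatives, 27 had the opposite sign to the reported one, and 14 of the 30 genes had none, among them ALDOA (0.34 to 0.55), TPI1 (0.19 to 0.37), SLC16A1 (0.19 to 0.42) and EGLN3 (0.40 to 1.13). The adjusted p of these 4 was at least 0.844 throughout. The changes of filter, the dye term, the intensity trend and separate channels leave every mean as reported, so they could not change a sign. Averaging probes likewise leaves the means of the 19 genes with 1 tested probe as they are. The count of sign changes thus says little about those alternatives. With probes required to be above background in all 8 channels, 28 of the 30 genes were tested, and PFKFB4 and EPAS1 keep their reported means. The reported test is itself paired, since each ratio sets the pools of 1 array against each other.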

Other observations

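PCK1, the cytosolic counterpart of PCK2 and chosen once its values were known, had ratios of 3.81, -0.048, 0.21 and 4.69 on arrays 1 to 4. Its signal was thus far higher in the poor-donor pool on arrays 1 and 4 and near equal on arrays 2 and 3, with a mean of 2.17 ± 2.44 (SD, n = 4; limma, unadjusted p = 0.071, adjusted p = 1). The PCK1 probe was above background in all 8 channels, and both dye orientations held 1 array with the high ratio. The marker medians on array 1 were below 0 for leukocytes (-0.097) and epithelium (-0.41), and above 0 on array 4. In each of these lists, 3 of the 10 markers were above 0 on array 1. The part of other cell types in the PCK1 result was not tested.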
